A study of Mus musculus with 3 samples.

Results

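The receptors for interleukin-4, interleukin-6, interleukin-7 and interleukin-21 were examined in CD8+ T cells through 8 genes, set by gene symbol: the receptor chains Il4ra, Il6ra, Il6st, Il7r and Il21r, the signal transducers Stat6 and Stat3, and the feedback inhibitor Socs3. All 8 were among the 10191 genes with a value, each through 1 probe set that carries no other symbol. Populations of CD8+ T cells from C57BL/6 mice that report the chemokine receptor CXCR3 by green fluorescent protein were compared, with 1 array for each of 3: the innate cells with CXCR3, labelled CXCR3+ innate, those without it, labelled CXCR3- innate, and naive cells. The mice were naive animals kept free of pathogens, also called CIBER mice in the labels, which give no age, and every population carried the reporter. Cells were sorted from spleen and lymph nodes with antibodies to CD44 and CD8 among others, and RNA came from about 3 to 5 mice, with no statement of how many mice each array holds. Values are log2 RMA expression values, so a difference of 1 is 2-fold. Because no population was replicated, no difference could be set against a spread between replicates, no test was possible, and higher and lower refer to these 3 arrays only.

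These cytokines signal through pairs of receptor chains that activate Janus kinases and STAT transcription factors. Il4ra, Il7r and Il21r each encode a receptor chain that works with the common gamma chain. The interleukin-6 receptor chain Il6ra works instead with gp130, encoded by Il6st, which interleukin-27 and other cytokines share. Interleukin-4 acts mainly through STAT6, interleukin-6 and interleukin-21 mainly through STAT3, and interleukin-7 mainly through STAT5. SOCS3 is induced by STAT3 and binds gp130, which shuts the signal down. In mice, interleukin-7 maintains naive and memory CD8+ T cells, and interleukin-4 promotes memory-phenotype CD8+ T cells that express Eomes.

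The DNA just upstream of the RefSeq start of 4 of these genes is printed because Il6st and Il21r had the largest differences, and because Socs3 and Il7r carry a STAT pattern there. The sequences are RefSeq's, build GRCm38.p6, 180 bases ending 1 base before the start, 5′ to 3′ on the gene's strand, with motif matches in capitals. Il6st lies at chr13:112463890-112464069 on the plus strand, Il21r at chr7:125603249-125603428 on the plus strand, Socs3 at chr11:117969367-117969546 on the minus strand and Il7r at chr15:9529877-9530056 on the minus strand.
Il6st: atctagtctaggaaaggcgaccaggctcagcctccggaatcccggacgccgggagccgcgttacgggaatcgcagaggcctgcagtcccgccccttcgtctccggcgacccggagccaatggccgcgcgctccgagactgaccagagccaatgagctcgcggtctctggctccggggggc
Il21r: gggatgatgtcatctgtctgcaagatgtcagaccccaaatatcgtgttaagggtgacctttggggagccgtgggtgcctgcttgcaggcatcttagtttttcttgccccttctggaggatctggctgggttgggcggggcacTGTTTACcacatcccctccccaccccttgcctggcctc
Socs3: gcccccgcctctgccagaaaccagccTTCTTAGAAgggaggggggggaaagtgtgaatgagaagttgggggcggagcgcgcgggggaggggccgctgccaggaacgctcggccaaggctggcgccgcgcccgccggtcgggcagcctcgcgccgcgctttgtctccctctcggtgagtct
Il7r: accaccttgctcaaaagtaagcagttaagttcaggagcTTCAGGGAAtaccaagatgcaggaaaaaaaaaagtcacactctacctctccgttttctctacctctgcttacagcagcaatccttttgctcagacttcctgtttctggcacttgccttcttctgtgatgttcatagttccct

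In all, 3 motifs were searched on both strands in the 250 bases upstream of each start: the STAT patterns TTCNNNGAA and TTCNNNNGAA, and the forkhead pattern GTAAACA. TTCNNNGAA was found in 2 of the 8 genes, in Socs3 from base -154 to -146 and in Il7r from base -142 to -134, and 7.02% of all 32851 promoters in the table hold it. GTAAACA was found in 1 of the 8, on the opposite strand of Il21r from base -38 to -32, and 3.17% of all promoters hold it. TTCNNNNGAA was in none of the 8 and is in 5.85% of all. The motifs do not overlap in these windows, and the windows of Il6st, Il4ra, Il6ra, Stat6 and Stat3 hold none of them. A match describes the letters only.

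Cd8a and Cd8b1, which encode the CD8 coreceptor, had values of 9.77 to 10.43 and 11.29 to 11.54. Cd44, the adhesion receptor used in the sort, read 8.30 on the CXCR3+ innate array, 7.88 on the CXCR3- innate array and 7.24 on the naive array, and Cxcr3 read 7.97, 7.82 and 7.57 in the same order. Of the markers of other cells, 1 of 12 B cell genes (Ighm), 2 of 7 CD4 and regulatory T cell genes, 7 of 12 myeloid and dendritic genes and 1 of 9 natural killer cell genes had a value. Ms4a1, Cd4, Lyz2 and Klrb1c had none. The highest value among those with one was 8.34. Summed on the linear scale, the myeloid genes came to 1164 on the CXCR3+ innate array, 1185 on the CXCR3- innate array and 1151 on the naive array. In the same order, the CD4 and regulatory T cell genes came to 308, 380 and 340. Ighm was at 307, 325 and 268, and the natural killer cell gene Ncr1 at 146, 173 and 146. Each of these was highest on the CXCR3- innate array. Ctla4, on the regulatory list, was at -0.53 in CXCR3+ innate minus CXCR3- innate. The part of these marker genes in the results below was not tested. In bulk samples, fewer cells that express a gene and less RNA per cell cannot be told apart.

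Il6st, the gp130 chain, differed most among the 8 genes. It read 9.33 on the CXCR3+ innate array, 9.70 on the CXCR3- innate array and 10.04 on the naive array, with the naive array on top. CXCR3+ innate minus naive was -0.71, which is 1.63-fold lower. Il6st was the only one of the 8 that reached 1.5-fold in that comparison. A gene counted as reaching 1.5-fold only if its higher value also reached the median level of its array, which all 8 genes did on every array. The 541 olfactory and vomeronasal receptor genes had a median of 7.72, above the array medians of 7.63 to 7.65. Meeting the condition therefore does not show that a gene was expressed. Of the 5319 genes that met this level condition, 1.33% were at least 1.5-fold lower, 0.959% at least 1.5-fold higher, and 37 others had a difference as low as that of Il6st. None of the 8 genes reached 2-fold, as 0.451% of genes did in either direction in this comparison, 0.466% in CXCR3- innate minus naive and 0.305% between the innate populations.

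Between the innate populations Il6st was also lower on the CXCR3+ array, at a difference of -0.37, and 1.20% of the 5252 genes at or above the level condition had a difference as low. CXCR3- innate minus naive was -0.34 for Il6st, and 13.0% of 5369 genes were as low or lower. After quantile normalization Il6st was at -0.48 between the innate arrays and at -0.14 in CXCR3- innate minus naive, where 22.1% of genes were as low. Il6ra, the chain that binds interleukin-6 itself, had the same order of arrays as Il6st in smaller steps. It read 8.45 on the CXCR3+ innate array, 8.56 on the CXCR3- innate array and 8.79 on the naive array, with differences from naive of -0.34 and -0.23, the second of which was -0.10 after quantile normalization. Both chains of the interleukin-6 receptor thus read highest in naive and lowest in CXCR3+ innate cells.

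**Figure D1:**
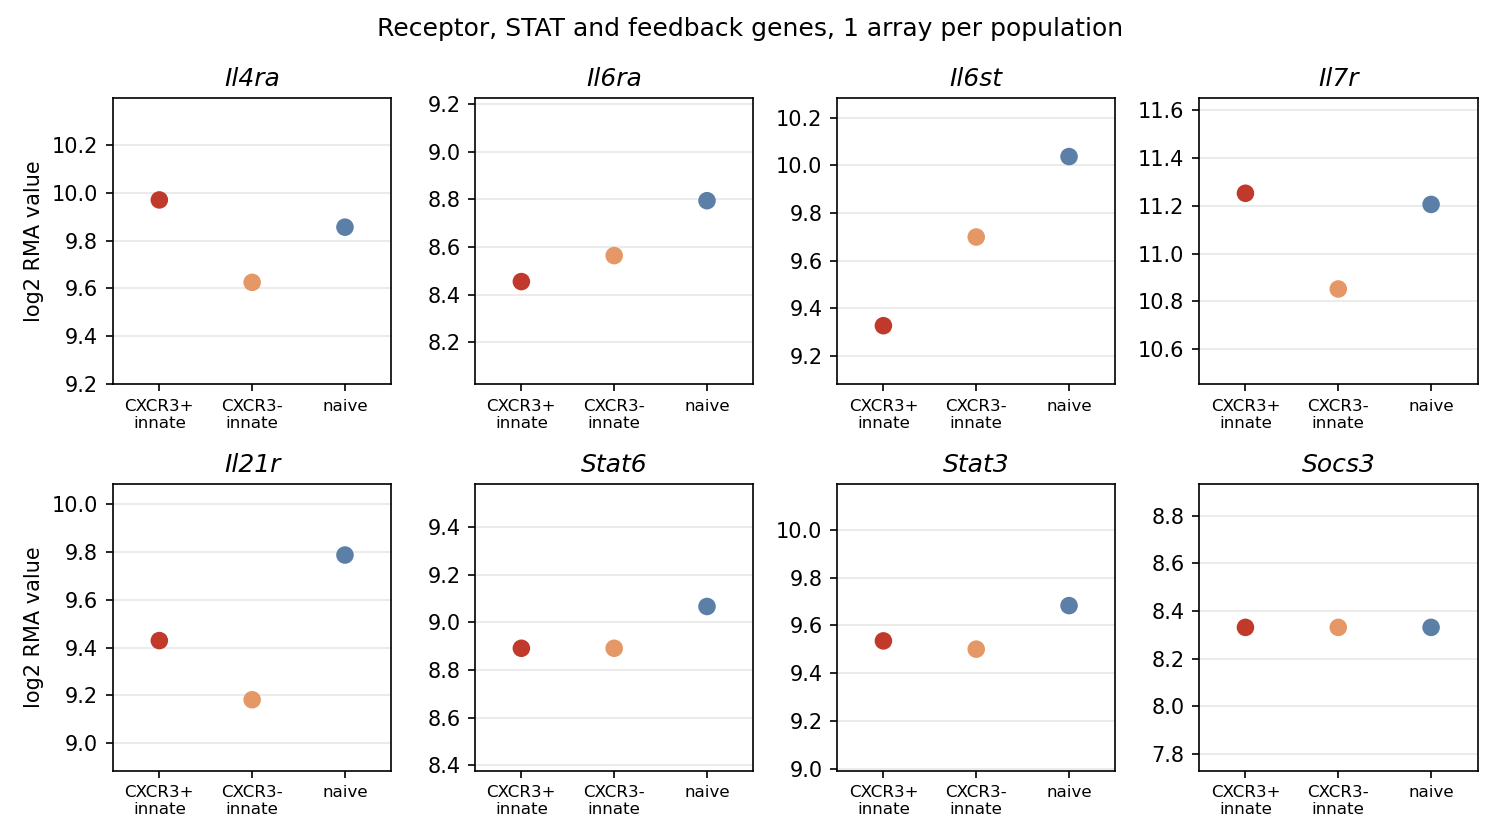
Log2 RMA value (y axis, each panel spanning the same height around its own middle) of the 8 genes on the CXCR3+ innate, CXCR3- innate and naive arrays (x axis); each point is 1 array and there are no error bars. Il6st is at 9.33 in CXCR3+ innate and at 10.04 in naive cells, Il4ra, Il7r and Il21r are lowest in CXCR3- innate cells, and Socs3 is at 8.33 throughout.

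Il21r, the private chain of the interleukin-21 receptor, was lowest in CXCR3- innate cells. It read 9.43 on the CXCR3+ innate array, 9.18 on the CXCR3- innate array and 9.79 on the naive array. CXCR3- innate minus naive was -0.61, which is 1.52-fold lower, while the CXCR3+ innate array was at -0.36 from the naive one. Il21r was the only one of the 8 genes that reached 1.5-fold in CXCR3- innate minus naive, where 3.04% of genes were at least that much lower and 0.186% higher. The difference lay just past the threshold of 0.585 and missed it after cyclic loess (-0.53), quantile normalization (-0.44) and centring on the median (-0.58). Measured genes of the T cell receptor and coreceptor were also lower in this comparison. Cd3g was at -0.93, Cd8a at -0.66, Cd3d at -0.52, Cd3e at -0.30 and Cd8b1 at -0.26. In CXCR3+ innate minus naive they were at -0.38, -0.29, 0.0053, -0.36 and -0.24 in the same order. The part of these genes in the result was not tested.

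Il4ra, the chain that binds interleukin-4, and Il7r, the chain that binds interleukin-7, were likewise lowest on the CXCR3- innate array, while the other arrays were close to each other. Il4ra read 9.97 on the CXCR3+ innate array, 9.62 on the CXCR3- innate array and 9.86 on the naive array. Il7r read 11.25 on the CXCR3+ innate array, 10.85 on the CXCR3- innate array and 11.21 on the naive array. Against naive cells, Il4ra differed by 0.11 in CXCR3+ innate and by -0.23 in CXCR3- innate cells, and Il7r by 0.05 and -0.35 in the same order. Between the innate populations Il7r was 1.32-fold higher and Il4ra 1.27-fold higher on the CXCR3+ array. Il21r was 1.19-fold higher there. None of the 8 genes reached 1.5-fold in that comparison, in which 1.94% of genes were at least 1.5-fold higher and 0.152% at least 1.5-fold lower. After quantile normalization Il4ra was nearly level between CXCR3- innate and naive cells, at -0.04, and Il7r was at -0.18. In the RefSeq table of GRCm38.p6, Il4ra and Il21r are neighbours on chromosome 7 with no listed gene between them.

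Among the 8 genes, Stat6 and Stat3 varied less than the receptor chains. Stat6, which carries the interleukin-4 signal, had the same value of 8.89 on both innate arrays and 9.07 in naive cells, a difference of -0.18 from naive in each, which became -0.08 and -0.03 after quantile normalization. Stat3, which carries the interleukin-6 and interleukin-21 signals, read 9.54 on the CXCR3+ innate array, 9.50 on the CXCR3- innate array and 9.68 on the naive array. Its differences from naive were -0.15 and -0.18, and after quantile normalization they were -0.04 and 0.0030. Socs3, the feedback inhibitor of gp130 signalling, read 8.33 on all 3 arrays, to the last decimal given. Such ties were frequent in the table, where 34.2% of probe sets had 1 value on all 3 arrays, so the tie does not show that Socs3 expression was equal.

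Over the 8 genes, the median difference from naive cells was -0.16 in CXCR3+ innate and -0.23 in CXCR3- innate cells. After quantile normalization these medians were -0.06 and -0.07. The median of CXCR3+ innate minus CXCR3- innate was 0.02, which became -0.05 after quantile normalization and -0.0024 after cyclic loess. As reported, the medians of all genes at or above the level condition were 0.00, -0.02 and 0.00 in these comparisons. After quantile normalization they were 0.02, 0.03 and -0.02 in the same order. Between the innate populations this median was -0.0030 after cyclic loess. In CXCR3+ innate minus naive, 5 of the 8 genes were below 0, 2 above and 1 equal, where 48.4% of genes at that level were below 0 and 18.9% above. In CXCR3- innate minus naive, 7 of the 8 were below 0 and 1 was equal, where 52.2% of genes were below 0 and 18.5% above. Between the innate populations 4 of the 8 were above 0, 2 below and 2 equal, where 37.9% of genes were above 0 and 24.5% below. Under quantile normalization, which left few ties, the larger of these shares became the smaller in each comparison, as it did, less far, under cyclic loess and median centring. After quantile normalization 5 of the 8 genes were below 0 in CXCR3+ innate minus naive, where 38.9% of genes were below 0 and 61.0% above. In CXCR3- innate minus naive 6 of the 8 were below 0, where 39.8% of genes were below and 60.1% above. Between the innate populations 5 of the 8 were below 0, where 68.9% of genes were below and 31.1% above. The comparisons with naive cells share the naive array, so their differences are not independent of each other.

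**Figure D2:**
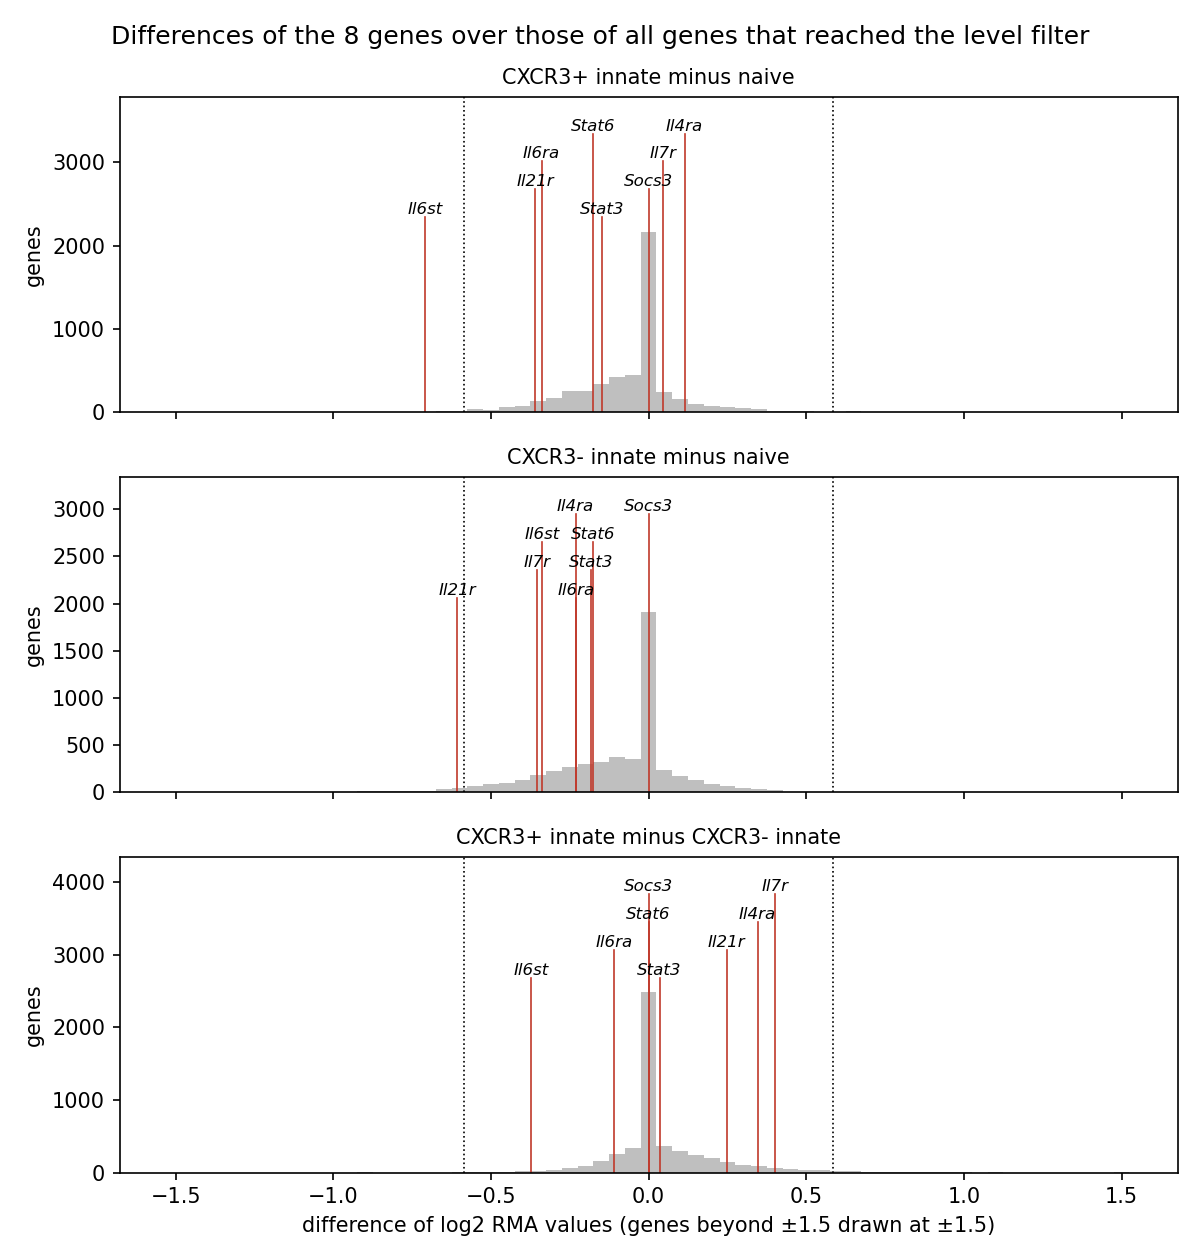
Histograms of the difference of log2 RMA values (x axis) over all genes that met the level condition (y axis, number of genes; 5319, 5369 and 5252 genes from top to bottom) for the 3 comparisons. Red lines mark the 8 genes, their heights only separate the names, and dotted lines mark 1.5-fold: Il6st at -0.71 in the top panel and Il21r at -0.61 in the middle panel lie past them, and no member does in the bottom panel.

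Genes whose pattern over the 3 arrays came nearest to those of Il6st and Il21r were picked by the Euclidean distance between their pairs of differences from naive cells, among 4597 named genes. Nearest to Il6st were Aim2, a cytosolic DNA sensor, at a distance of 0.01, Calcrl, a peptide hormone receptor, at 0.04 and the integrin gene Itgb7 at 0.08. Only 5 genes lay within 0.1 of Il6st. Aim2 read 7.22 on the CXCR3+ innate array, 7.58 on the CXCR3- innate array and 7.92 on the naive array. Nearest to Il21r were the kinase gene Clk1 and the long noncoding RNA Tug1, both at 0.02, and Lrch3 at 0.03, and 48 genes lay within 0.1. Clk1 read 10.11 on the CXCR3+ innate array, 9.89 on the CXCR3- innate array and 10.48 on the naive array. With 3 arrays such a likeness rests on 2 numbers per gene.

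The other genes of these pathways were described from fixed lists, of which 70 of 108 genes had a value. In each comparison 50 of the 70 met the level condition. In CXCR3+ innate minus naive 3 were at least 1.5-fold higher and 3 lower, beside 0.959% and 1.33% of all genes at that condition. Counts in CXCR3- innate minus naive were 2 higher and 3 lower, beside 0.186% and 3.04%. Between the innate populations 2 were higher and none lower, beside 1.94% and 0.152%. The lists hold genes known to differ here from earlier results, so these counts support nothing. The median of the 70 genes was 0.00 in each comparison, as was that of all 10191 genes.

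Among related receptor chains, 7 of 18 had a value. Il27ra, which pairs with gp130 to bind interleukin-27, read 9.66 on the CXCR3+ innate array, 9.89 on the CXCR3- innate array and 10.33 on the naive array. This is the order of arrays seen for Il6st, and CXCR3+ innate minus naive was -0.67, or 1.60-fold lower, which fell short of 1.5-fold after quantile normalization (-0.57). CXCR3- innate minus naive was -0.45 for Il27ra. Il2rb, the chain shared by the interleukin-2 and interleukin-15 receptors, went the other way at 10.85 on the CXCR3+ innate array, 9.86 on the CXCR3- innate array and 9.85 on the naive array. Its difference between CXCR3+ innate and naive cells was 1.003 on the log2 scale, just past 2-fold, and 0.99 with a linear offset.

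The measured shared kinases differed little. Jak1, the kinase bound to all of these receptors, read 11.02 on the CXCR3+ innate array, 10.96 on the CXCR3- innate array and 11.09 on the naive array. Jak2 and Tyk2, kinases that also serve gp130, differed by at most 0.08 in size in any comparison. Tyk2 read 7.57 on the CXCR3+ innate array and 7.54 on each of the others. It missed the level condition in every comparison, so its small differences do not show that its expression was alike. Il2rg, the common gamma chain, had no value, and Jak3, the kinase bound to it, was measured only by a probe set shared with another gene. Stat5b, a transducer of interleukin-7, read 8.51 on the CXCR3+ innate array, 8.68 on the CXCR3- innate array and 8.93 on the naive array. For Stat5b, CXCR3+ innate minus naive was -0.42, and 4.06% of genes at the level condition were as low. Stat5a, its partner, read 8.64, 8.65 and 8.84 on the CXCR3+ innate, CXCR3- innate and naive arrays. Stat4, the transducer of interleukin-12, was highest on the CXCR3+ innate array, at 10.45, against 10.21 in CXCR3- innate and 10.20 in naive cells. Of the ligand genes only Il13, Il27 and Osm had a value. Il13 read 7.80 on the CXCR3+ innate array, 8.06 on the CXCR3- innate array and 7.73 on the naive array, Il27 lay between 8.24 and 8.32, and Osm was at 7.18 on every array. Osm thus lay below 7.72, the median of the olfactory and vomeronasal receptor genes, and Il13 near it on the CXCR3+ innate and naive arrays. Il27, and Il13 on the CXCR3- innate array, lay above this median, which is not an upper limit of those genes. None of these ligand values shows expression.

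**Figure D3:**
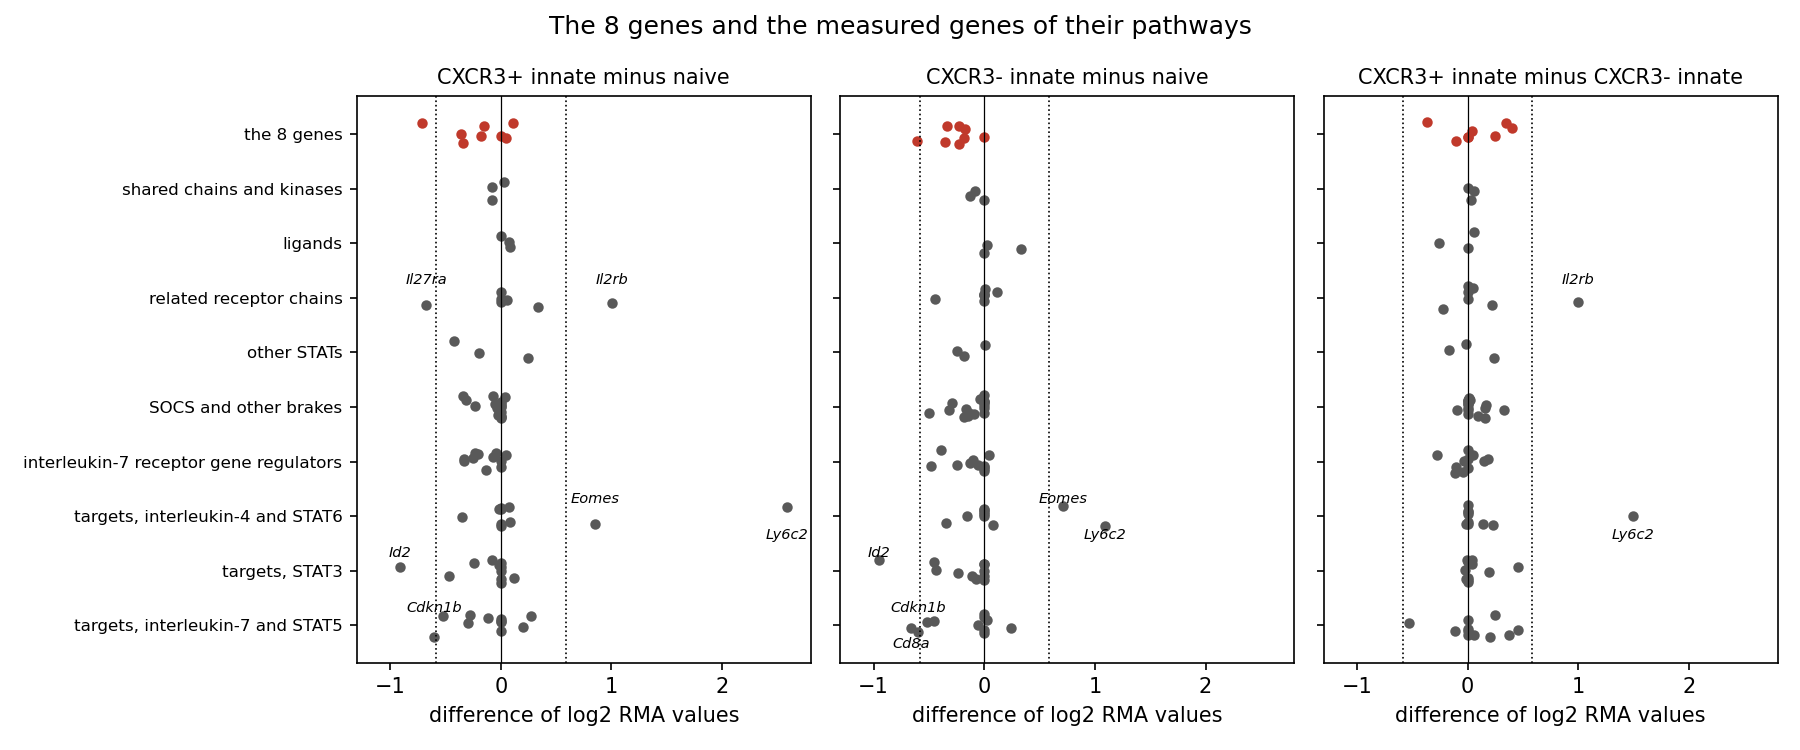
Difference of log2 RMA values (x axis) of the 8 genes (red) and of the measured genes of each pathway list (grey, 1 row per list, with points moved up or down at random to separate them) in the 3 comparisons. Dotted lines mark 1.5-fold and names are printed for listed genes past it: Il27ra at -0.67 and Il2rb at 1.003 in CXCR3+ innate minus naive stand apart among the receptor chains, though Il27ra was at -0.57 after quantile normalization.

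Of 19 listed brakes of cytokine signalling 16 had a value, and 10 of these met the level condition in each comparison. None counted as past 1.5-fold in any comparison. Of all genes at the level condition, 2.29% were past it between CXCR3+ innate and naive cells, 3.22% between CXCR3- innate and naive cells and 2.09% between the innate populations. The lowest difference was -0.50, that of Pias1, an inhibitor of STAT proteins, in CXCR3- innate minus naive. Genes encoding regulators of Il7r also had none past 1.5-fold among 11 of 14 with a value, and 9 of the 11 met the level condition in each comparison. Foxo1, the forkhead factor that drives Il7r in naive T cells, read 9.45 on the CXCR3+ innate array, 9.55 on the CXCR3- innate array and 9.68 on the naive array.

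Of 13 listed genes tied to interleukin-4 and STAT6, 10 had a value and 4 met the level condition in each comparison. Eomes and Ly6c2 were past 1.5-fold in both innate populations against naive cells, Eomes not with the level condition at the 75th percentile. Eomes, a transcription factor of memory CD8+ T cells, read 7.92 on the CXCR3+ innate array, 7.77 on the CXCR3- innate array and 7.06 on the naive array. Ly6c2, whose surface protein marks memory-phenotype CD8+ T cells, was at 11.87, 10.38 and 9.28 in the same order. Gata3, Cish, Il24 and Ccl24, also on that list, each had 1 value on all 3 arrays, at 7.42, 7.01, 7.35 and 7.15. Each missed the level condition in every comparison, so these ties do not show that expression was equal. Of 17 listed STAT3-linked genes 11 had a value. Of these, 8 met the level condition in each comparison with naive cells and 7 between the innate populations. Only Id2 passed, at 9.08 on the CXCR3+ innate array, 9.04 on the CXCR3- innate array and 9.99 on the naive array. Of all genes at the level condition, 1.33% were at least 1.5-fold lower and 0.959% higher in CXCR3+ innate minus naive. In CXCR3- innate minus naive these shares were 3.04% and 0.186%. Id2 encodes an inhibitor of DNA-binding factors. Among 13 listed interleukin-7 and STAT5 targets, 11 had a value. In CXCR3+ innate minus naive 8 of them met the level condition, and 9 did in each other comparison. The cell cycle inhibitor gene Cdkn1b was at -0.60 in both innate populations against naive cells. It fell short of 1.5-fold in both after quantile normalization, median centring, cyclic loess or the linear offset. Cd8a passed in CXCR3- innate minus naive, but not after quantile normalization (-0.45). Bcl2, the survival gene downstream of interleukin-7, was at -0.33 in CXCR3- innate minus naive and at 0.18 in CXCR3+ innate minus naive on the brighter of its probe sets. The other one lay below the median level of every array and was at 0.37 and 0.36 in the same order. Averaged over its probe sets, the value used in the list, Bcl2 was at 0.02 and 0.27. The direction of Bcl2 in CXCR3- innate minus naive therefore depended on the probe set. These target genes answer to other signals as well, so their values do not measure the activity of these receptors.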

How the data were processed

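RNA of 3 sorted CD8+ T cell populations was hybridised to 1 Affymetrix array each, and the number of arrays limits the precision. The authors deposited log2 expression values that, per the submitters' processing notes, come from RMA and Affymetrix Expression Console. Versions are not given in the sources used here. The table held 12417 probe sets, each at 7.00002 or above on at least 1 array, so a gene without a value may be dim or unnamed. The platform annotation gave 10576 probe sets 1 symbol, 1108 several and 733 none. Only the first kind was used, averaged per gene, which gave 10191 genes. Older symbols were matched through RefSeq synonyms. A gene counted when its log2 values differed by 2-fold or 1.5-fold and the higher one reached its array's median over genes. That level lies below the median of the olfactory and vomeronasal receptor genes, 7.72. Cxcr3, Cd44, Ctla4, Ncr1, Eomes, Aim2, Calcrl, Tyk2, Gata3, Cish, Il24, Ccl24, Il13 and Osm read near or below 7.72 on some or all arrays. Their differences or ties are therefore less certain. Shares of genes refer to those at or above that level.

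The 8 genes, the pathway and marker lists, the thresholds and the alternatives were chosen with earlier results of these data known, and the motifs after the values were seen. By rule, the 8 genes, measured shared kinases, ligands, other STATs and listed genes past 1.5-fold were named. A few more listed genes (Pias1, Foxo1, Gata3, Cish, Il24, Ccl24, Bcl2) and marker genes were chosen after their values were seen. The 3 genes of nearest pattern were named for each of the 8 past 1.5-fold, leaving out predicted genes, olfactory receptors, small RNAs, histone clusters and antigen receptor segments. Alternatives tried were cyclic loess, quantile normalization, median centring, a filter on dim genes at the 75th percentile or none, a linear offset of 16 and the brightest probe set per gene. Tools were Python 3.11.15, numpy 2.4.6, pandas 2.3.3, matplotlib 3.10.9, R 4.3.3 and limma 3.58.1.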

Additional observations from a re-analysis of the deposited data

How the results depend on the processing

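No paired analysis was possible because each population had 1 array. Il6st stayed past 1.5-fold in CXCR3+ innate minus naive under all 7 alternatives, at -0.71 to -0.61, and no member reached 2-fold in any. The filters and the brightest probe set could not alter this call of Il6st. It has 1 probe set, and its naive value of 10.04 lies above the 75th percentile of 8.23. The value nearest the threshold of 0.585 in size was -0.61, after quantile normalization. The count of members past 1.5-fold in CXCR3- innate minus naive, 1 as reported (Il21r), was 0 after quantile normalization, centring on the median and cyclic loess. There the count of other pathway genes was 3 after quantile normalization (2 higher and 1 lower) and 5 as reported (2 higher and 3 lower). The share of these pathway calls that were higher moved by over 10 points under some scalings: in CXCR3+ innate minus naive it was 75% after quantile normalization, 60% after centring, cyclic loess or the offset and 50% as reported, and in CXCR3- innate minus naive 66.7% after quantile normalization, 50% after the other 3 and 40% as reported. With the filter at the 75th percentile the shares were 40% and 25%. Over all genes past 1.5-fold that share was 53.5% after quantile normalization and 41.8% as reported in CXCR3+ innate minus naive, and 18.3% and 5.78% in CXCR3- innate minus naive. Over 168 recomputed differences of single members, 141 moved by at most 0.1 with the same sign and call, 12 moved by at most 0.1 away from a difference of exactly 0, and 15 moved further or changed sign or call. The filter settings and the brightest probe set could not move these differences, because each member has 1 probe set. Many of the 141 were therefore unchanged by construction. The 2 changes of sign were those of Stat3 after quantile normalization, at 0.0030 in CXCR3- innate minus naive and -0.05 in CXCR3+ innate minus CXCR3- innate. The median over the 8 genes in CXCR3- innate minus naive was -0.07 after quantile normalization, beside 0.03 over all genes at the level condition. The causes of these shifts were not tested.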
